A study of Homo sapiens with 12 samples.

Results

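Semaphorins, plexins and neuropilins were followed here as a family of 31 genes among the 17518 in the deposited count table. They are every row whose symbol is that of a class 3 to class 7 semaphorin (20 genes), a plexin of classes A to D (9 genes) or a neuropilin (NRP1 and NRP2). The 12 libraries came from the human lines MUTZ-1 and SKM-1, 2 lines that the labels ascribe to myelodysplastic syndrome, in which a mutated clone takes over blood formation. Each line was sequenced with a control short hairpin RNA (shRNA; genotype label WT) and with an shRNA against NUDT21 (genotype label shNUDT21), in 3 libraries per group. NUDT21 encodes a subunit of cleavage factor Im, which helps to choose where a transcript is cut and polyadenylated. The labels name marrow as the tissue, and the growth medium held 10% serum. They do not give the hairpin sequence, its vector, the time after its delivery, or whether a knockdown line was 1 clone. The comparisons ask how lowering NUDT21 changed mRNA levels in each line.

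Semaphorins are secreted or membrane-bound signals that were first known for steering growing axons, and plexins are their receptors. Class 3 semaphorins are secreted and most of them bind a neuropilin, which has a short cytoplasmic tail and signals together with a class A plexin. Semaphorins of the other vertebrate classes are anchored in the membrane and bind plexins directly. The cytoplasmic part of plexins acts on small GTPases, through which it changes the actin skeleton and adhesion. In blood cells, SEMA4A, SEMA4D, SEMA7A and several plexins are known from contacts between immune cells, and neuropilins also bind vascular endothelial growth factor.

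In SKM-1 cells with the NUDT21 hairpin, most ligands and the neuropilin NRP2 of this family were lower than in control cells. Of them, 9 were left at under 10% of their control level, and the share of all genes left so low was not counted. At least 2-fold, 13 of 28 tested members were lower, against 22.5% of all genes. Members that passed the filter on low counts only through SKM-1 control libraries had to fall. SEMA3E passed it only through SKM-1 hairpin libraries and had to rise. SEMA5A, SEMA3C and NRP2 were left at 0.408%, 0.999% and 1.86%. SEMA3E, SEMA7A and the plexins PLXND1 and PLXNC1 rose instead. In MUTZ-1, where 15 of the 31 members stayed under 1 CPM (counts relative to the scaled library total, the CPM unit of the counts below) in both groups, the members that were expressed mostly rose, by smaller amounts, and SEMA7A fell to 4.23% of its control level.

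The promoters of 4 members are shown because these genes moved the furthest, or in opposite directions, while their sequences differ in composition. Each is the 250 bases before the transcript start of the RefSeq annotation (GRCh38.p14), written 5′ to 3′ on the minus strand, on which all 4 genes lie. Capitals mark CpG dinucleotides. The windows are chr5:9546076-9546325 for SEMA5A, chr7:80922390-80922639 for SEMA3C, chr7:83649140-83649389 for SEMA3E and chr15:74433959-74434208 for SEMA7A. No annotated exon of these 4 genes lies in them, and exons of other genes were not searched.
SEMA5A: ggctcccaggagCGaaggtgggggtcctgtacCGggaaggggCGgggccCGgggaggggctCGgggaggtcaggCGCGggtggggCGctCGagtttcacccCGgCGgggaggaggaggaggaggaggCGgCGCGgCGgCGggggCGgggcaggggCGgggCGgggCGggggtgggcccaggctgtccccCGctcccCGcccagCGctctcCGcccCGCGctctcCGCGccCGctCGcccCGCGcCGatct
SEMA3C: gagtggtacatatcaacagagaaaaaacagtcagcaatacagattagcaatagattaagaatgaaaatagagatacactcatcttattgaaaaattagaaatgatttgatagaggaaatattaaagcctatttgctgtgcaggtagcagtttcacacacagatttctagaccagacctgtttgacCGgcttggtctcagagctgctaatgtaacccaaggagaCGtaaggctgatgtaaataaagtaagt
SEMA3E: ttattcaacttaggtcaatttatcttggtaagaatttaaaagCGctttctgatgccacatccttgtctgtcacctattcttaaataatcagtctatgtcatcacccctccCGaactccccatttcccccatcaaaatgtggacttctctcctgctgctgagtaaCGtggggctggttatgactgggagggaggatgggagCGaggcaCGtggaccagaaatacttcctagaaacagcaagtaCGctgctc
SEMA7A: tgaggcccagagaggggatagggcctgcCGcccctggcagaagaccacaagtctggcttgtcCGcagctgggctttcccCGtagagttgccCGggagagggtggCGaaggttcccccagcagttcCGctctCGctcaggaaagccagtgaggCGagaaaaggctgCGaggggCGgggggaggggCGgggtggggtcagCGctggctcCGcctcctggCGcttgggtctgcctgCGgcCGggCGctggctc
The SEMA5A window has a GC content of 82.0%, with 33 CpG dinucleotides and 7 GC boxes (GGGCGG on either strand). That of SEMA3C has a GC content of 36.4%, with 2 CpG dinucleotides and 0 GC boxes, and both genes fell by over 90% in SKM-1. The window of SEMA3E, which rose in SKM-1, has a GC content of 46.4% and 6 CpG dinucleotides. That of SEMA7A, which changed in opposite directions in the lines, has a GC content of 70.0%, 17 CpG dinucleotides and 3 GC boxes. A CpG-rich and a CpG-poor promoter thus stood before the pair of genes with the largest falls.

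Of the 31 members, 27 had a promoter entry, and their windows were set beside those of the 13777 genes of the count table that had one. The median GC content was 64.4% against 63.2%, and the median number of CpG dinucleotides 13 against 19. GC boxes stood in 66.7% of the members' windows and in 60.2% of all windows. CCAAT (either strand) stood in 22.2% against 34.6%, CCGGAA (either strand) in 11.1% against 21.0%, and TATAAA (either strand) in 0% against 7.61%. AGATAA (either strand), which holds the core of a GATA site, stood in 7.41% against 5.89%, in the windows of SEMA3E and SEMA5B. These are matches of letters in a window, not sites of binding.

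NUDT21, the target of the hairpin, was low in all 6 knockdown libraries. It was at 301, 297 and 301 CPM in MUTZ-1 control libraries and at 135, 136 and 142 CPM with the hairpin (log2 fold change -1.12 ± 0.03 SE). In SKM-1 it was at 322, 336 and 343 CPM and at 131, 132 and 129 CPM (-1.35 ± 0.03). Total counts ran from 15843012 to 18426619 per library. The labels do not say whether the 3 libraries of a group were grown as separate cultures. A p-value here therefore measures no more than the spread among these samples, which could be technical only.

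Markers were read against the labels before the members were described. In MUTZ-1 control libraries, 10 markers of monocytes and granulocytes summed to 8.54 to 12.7 CPM, with MPO and FCGR1A at 0, whereas 10 B-lineage markers summed to 2042 to 2052 CPM. CD79B and PAX5, which define B cells, were at 630 and 610.1 CPM there. With the hairpin the B-lineage sum was 1715 to 1756 CPM. In SKM-1 control libraries the monocyte and granulocyte sum was 50.0 to 54.4 CPM, and 10 of 11 erythroid markers stood at 1 CPM or more, with HBB at 0.0372 CPM. That erythroid sum was 1227 to 1239 CPM in the control libraries and 4525 to 4741 CPM with the hairpin. Other lists moved in SKM-1 as well. The sum of 5 leukocyte markers was 261 to 268 CPM in control and 603 to 618 CPM in hairpin libraries, and that of 5 epithelial markers 373 to 382 and 764 to 789 CPM. That of monocyte and granulocyte markers was 126 to 136 CPM with the hairpin, and that of 4 megakaryocyte markers 45.6 to 48.9 and 129 to 131 CPM. In control libraries, single genes made up most of the sums that went down. The sum of 6 neuronal markers was 55.9 to 56.2 and 12.7 to 18.1 CPM, of which SNAP25 made up 46.0 and 2.07 CPM, while TUBB3 was at 9.87 and 13.1 CPM. The sum of 7 fibroblast markers was 65.3 to 71.1 and 14.1 to 17.2 CPM, with COL3A1 at 46.2 and 1.75 CPM. COL1A1 fell too, at 9.69 and 1.86 CPM, as did PDGFRB, at 8.83 and 0.409 CPM. COL1A2, at 2.65 and 10.3 CPM, and LUM, at 0.278 and 1.18 CPM, went the other way. The sum of 5 endothelial markers was 61.9 to 66.1 and 8.56 to 10.9 CPM, with ERG at 60.4 and 2.13 CPM. PECAM1 was at 2.93 and 7.69 CPM, KDR at 0 in both and TEK and VWF near 0. The part of these shifts in the members' changes was not tested. The series text names MUTZ-1 for both lines, although the sample labels give MUTZ-1 and SKM-1. Whether the SKM-1 control and hairpin libraries held the same line and the same mix of cells was not tested either, and each SKM-1 change below is a difference between libraries so labelled. In bulk RNA, fewer cells of a type and less RNA per cell cannot be told apart.

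The 2 control lines held different sets of the family. Of the 28 members that passed the filter on low counts, 20 were lower and 6 higher in MUTZ-1 than in SKM-1. Over all 13625 genes tested, 48.8% were lower and 41.4% higher (edgeR's quasi-likelihood test, adjusted p under 0.05, also for every call given below). A member that passed the filter only through the group where it was high had to differ, such as SEMA3C and SEMA5A in SKM-1 control libraries. The members' counts here, after knockdown in SKM-1 and for the difference of effects are therefore partly set by the filter. NRP1, PLXNA4 and SEMA5B did not pass the filter. NRP1 had 1 count in the 3 MUTZ-1 control libraries and 0 in those of SKM-1, PLXNA4 0 and 18, and SEMA5B 4 and 17.

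Levels per gene length, in the deposited FPKM (fragments relative to gene length and library total), give the order of the members within a group. In MUTZ-1 control cells, PLXNB2, a class B plexin, was highest at 31.8 ± 0.672 FPKM (mean ± SD, n = 3, here and below). SEMA4A and PLXND1 followed at 16.3 ± 0.146 and 15.96 ± 0.348 FPKM, a gap within their spread. SEMA4B, SEMA4D, PLXNA3 and PLXNA1 came next, at 7.76 ± 0.481, 5.55 ± 0.170, 5.31 ± 0.0926 and 5.11 ± 0.168 FPKM, and the last 3 lay close to each other. In SKM-1 control cells PLXNA1 led at 27.5 ± 0.356 FPKM and NRP2 was second at 24.0 ± 0.669 FPKM. PLXNB2 stood at 16.6 ± 0.377, SEMA4C at 15.3 ± 1.14 and PLXNA3 at 13.7 ± 0.399 FPKM. Of the 20 semaphorins, 7 reached 1 FPKM in control MUTZ-1 and 16 in control SKM-1. With the hairpin, 6 did so in either line.

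**Figure D1:**
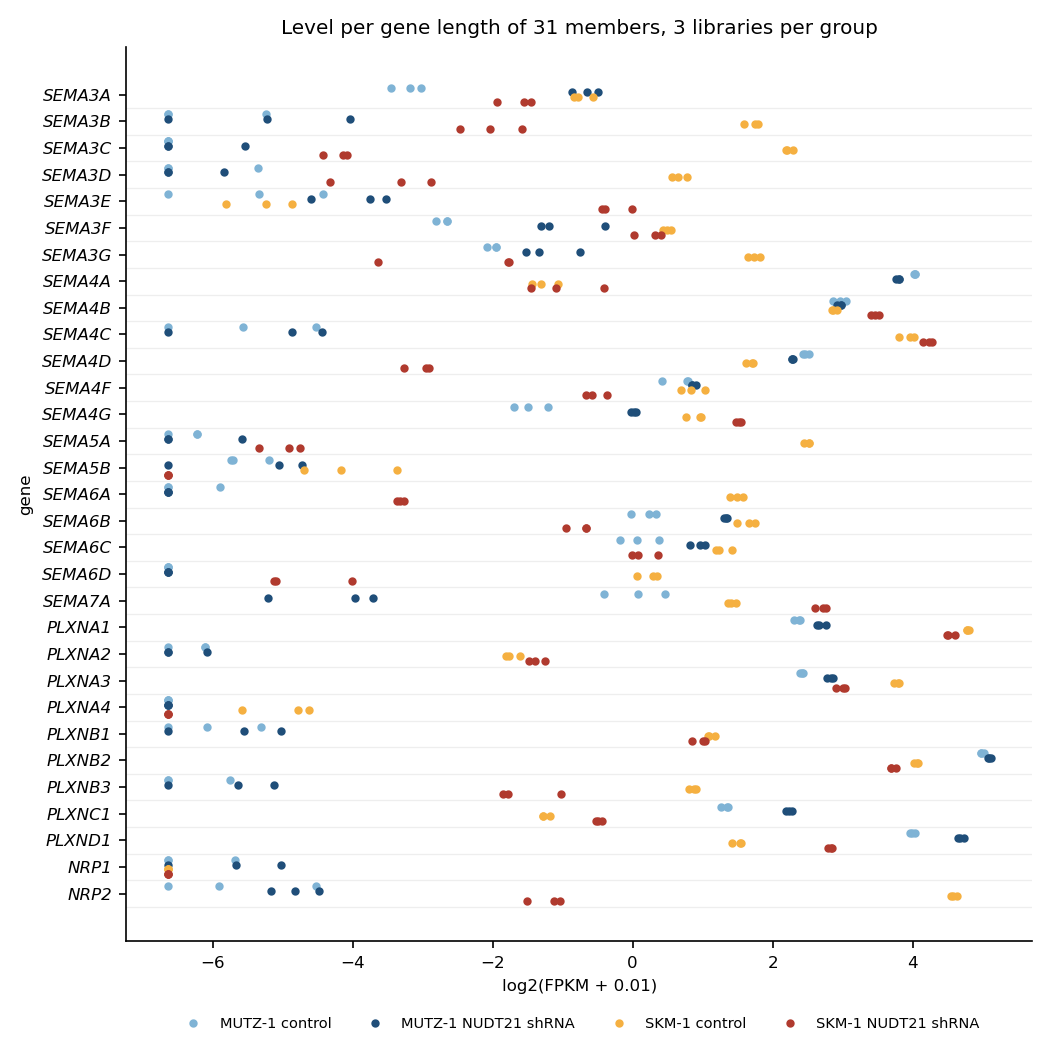
Level of each of the 31 members in the 12 libraries, as log2 of FPKM plus 0.01, with 1 point per library and 1 colour per group. The points at the far left are libraries with no count. SEMA3C, SEMA5A, SEMA6A, SEMA6D and NRP2 are high in SKM-1 control libraries alone, whereas PLXNB2 is high in all 4 groups.

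For SEMA3C, SEMA6D and SEMA5A, which had at most 2 counts in the MUTZ-1 control libraries together, the difference between the lines is given from counts. SEMA3C had 0 counts in MUTZ-1 control libraries and 1210 in those of SKM-1, which made it at least 392-fold lower in MUTZ-1 (with its summed count set to a floor of 3). SEMA6D, with 0 and 574 counts, was at least 186-fold lower. SEMA5A had 2 and 4599 counts, a ratio of 2233 (95% interval 618 to 18446, counting error only, as for the floor). In the other direction, SEMA4A stood at 62.5 ± 0.603 CPM in MUTZ-1 and 1.42 ± 0.194 CPM in SKM-1 (log2 difference 5.45 ± 0.11), PLXNC1 at 28.5 ± 1.01 and 4.27 ± 0.181 CPM (2.74 ± 0.10), and PLXND1 at 115 ± 2.47 and 18.4 ± 0.857 CPM (2.64 ± 0.05). SEMA4F did not differ beyond the spread, at 15.6 ± 2.16 and 16.1 ± 1.91 CPM.

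After knockdown in SKM-1, 17 of the 28 tested members were lower, 8 higher and 3 did not pass the test, where 42.3% of all tested genes were lower and 42.1% higher. At least 2-fold, 13 members were lower and 3 higher, against 22.5% and 12.6% of all genes. After knockdown in MUTZ-1, 11 of 28 members were higher, 3 lower and 14 did not pass, where 24.4% of all genes were higher and 24.6% lower. Of those, 5 were at least 2-fold higher and 1 at least 2-fold lower, against 3.11% and 1.64% of all genes. Among the 16 members at 1 CPM or more in either MUTZ-1 group, 10 were higher and 3 lower. Over the 10982 genes at that level 28.9% were higher and 29.5% lower, and over the 12713 such genes of SKM-1 44.2% and 43.3%. The split over all genes in MUTZ-1 moved with the scaling. Of all calls, 49.8% were rises with the trimmed-mean scaling used throughout and 60.7% with library totals alone, under which 12 members were higher and 3 lower.

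**Figure D2:**
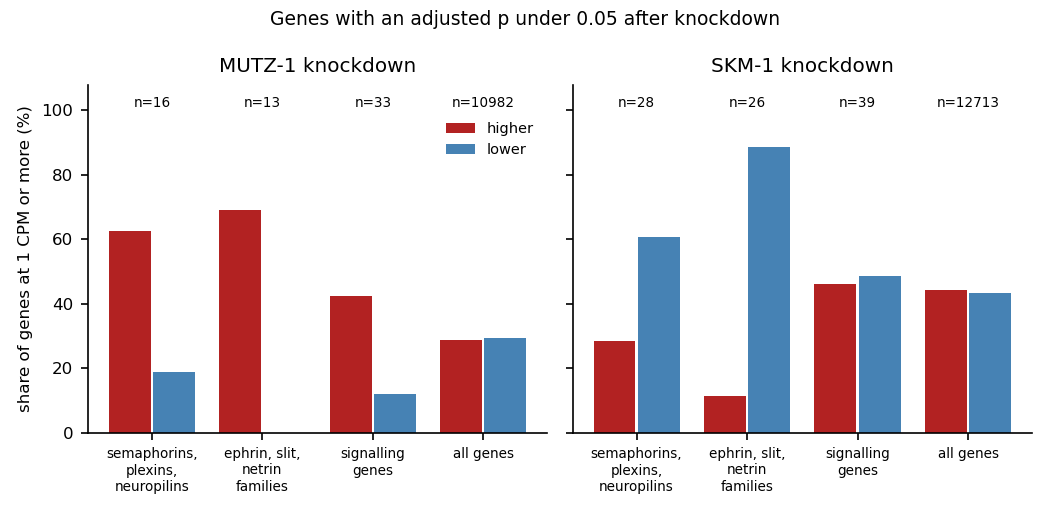
Share of genes that were higher (red) or lower (blue) after knockdown, in percent of the genes at 1 CPM or more in either group of a line, with the number of such genes above each pair of bars. The 16 members in MUTZ-1 are mostly higher, the 28 in SKM-1 mostly lower, and the bars of all genes are close to equal in both lines.

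NRP2 was the neuropilin of SKM-1 control cells. The gene lies at chromosome 2, positions 205681990 to 205798133, on the plus strand (GRCh38), and encodes the neuropilin through which SEMA3F and other class 3 ligands act. It was at 381, 369 and 362 CPM in the SKM-1 control libraries and at 5.58, 7.83 and 7.32 CPM in those with the hairpin. The 2 groups lay far apart, with a log2 change of -5.74 ± 0.06 (adjusted p = 3.15e-62). In MUTZ-1 it stayed under 0.6 CPM in all 6 libraries, with no change past the test. NRP1, the other neuropilin and a partner of SEMA3A, had at most 3 counts in any group.

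Class 3 ligands in SKM-1 fell together with NRP2, apart from SEMA3E and SEMA3F. Of the 7, 5 were lower, 1 was higher and 1 did not pass, where 42.3% of all genes were lower and 42.1% higher. SEMA3C, which acts through neuropilins and PLXND1 and lies at chromosome 7, positions 80742538 to 80922359, was at 22.1, 23.4 and 22.1 CPM in control libraries and at 0.251, 0.239 and 0.186 CPM with the hairpin (log2 change -6.60 ± 0.23). Its 3 knockdown libraries held 11 counts in all, against 1210 in the control libraries. SEMA3D went from 12.7, 11.6 and 10.9 to 0.313, 0.718 and 0.993 CPM (-4.10 ± 0.23). SEMA3G, a ligand of NRP2, went from 15.95, 15.0 and 16.9 to 1.44, 0.359 and 1.43 CPM (-3.89 ± 0.19), and SEMA3B from 11.0, 11.3 and 9.88 to 1.13, 0.598 and 0.806 CPM (-3.66 ± 0.23). The groups of these 4 ligands did not overlap, and each was left at under 10% of its control level.

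SEMA3A and SEMA3F changed less in that line. SEMA3A, the ligand first known for the collapse of growth cones, was at 4.77, 5.81 and 5.00 CPM in control libraries and at 2.32, 3.29 and 3.04 CPM with the hairpin (log2 change -0.85 ± 0.19). SEMA3F was at 6.01, 6.51 and 6.26 CPM and at 5.89, 6.28 and 4.78 CPM, and these groups overlapped.

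SEMA3E moved against the other class 3 ligands of SKM-1. It differs from most of them in that it binds PLXND1 without a neuropilin. The gene lies at chromosome 7, positions 83363238 to 83649113, between SEMA3C and SEMA3A. It was at 0.169, 0.0543 and 0.115 CPM in control libraries, 6 counts in all, and at 7.27, 5.38 and 5.52 CPM with the hairpin, 295 counts in all (log2 change 5.67 ± 0.39, adjusted p = 3.57e-33). All 3 knockdown libraries were far above the control libraries. SEMA3E passed the filter on low counts only through the SKM-1 hairpin libraries and so had to rise, which its p-value restates. PLXND1, its receptor, rose in the same line, as given with the plexins.

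In MUTZ-1 the summed level of class 3 ligands was low and went from 0.510 ± 0.0148 to 1.67 ± 0.129 FPKM, where SKM-1 went from 14.8 ± 0.288 to 2.90 ± 0.230 FPKM. SEMA3A was at 1.08, 0.776 and 0.961 CPM in MUTZ-1 control libraries and at 5.80, 6.49 and 5.00 CPM with the hairpin (log2 change 2.60 ± 0.23, adjusted p = 4.85e-22). The groups did not overlap, and the knockdown level was near that of SKM-1 control libraries. SEMA3F went from 0.736, 0.657 and 0.735 to 1.87, 2.04 and 3.57 CPM (1.80 ± 0.28), with 1 knockdown library well above the other two. SEMA3G went from 1.30, 1.31 and 1.19 to 2.99, 1.72 and 1.96 CPM (0.82 ± 0.25, adjusted p = 0.00394). That call rested on hairpin replicate 1, without which the log2 change was 0.54 (adjusted p = 0.117), and it was not made on log2(FPKM + 0.1) (limma, adjusted p = 0.0742). SEMA3E passed the test as well, at a mean of 0.132 ± 0.142 and 0.428 ± 0.174 CPM, but its groups overlapped. SEMA3B, SEMA3C and SEMA3D had at most 4 counts in a MUTZ-1 group.

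**Figure D3:**
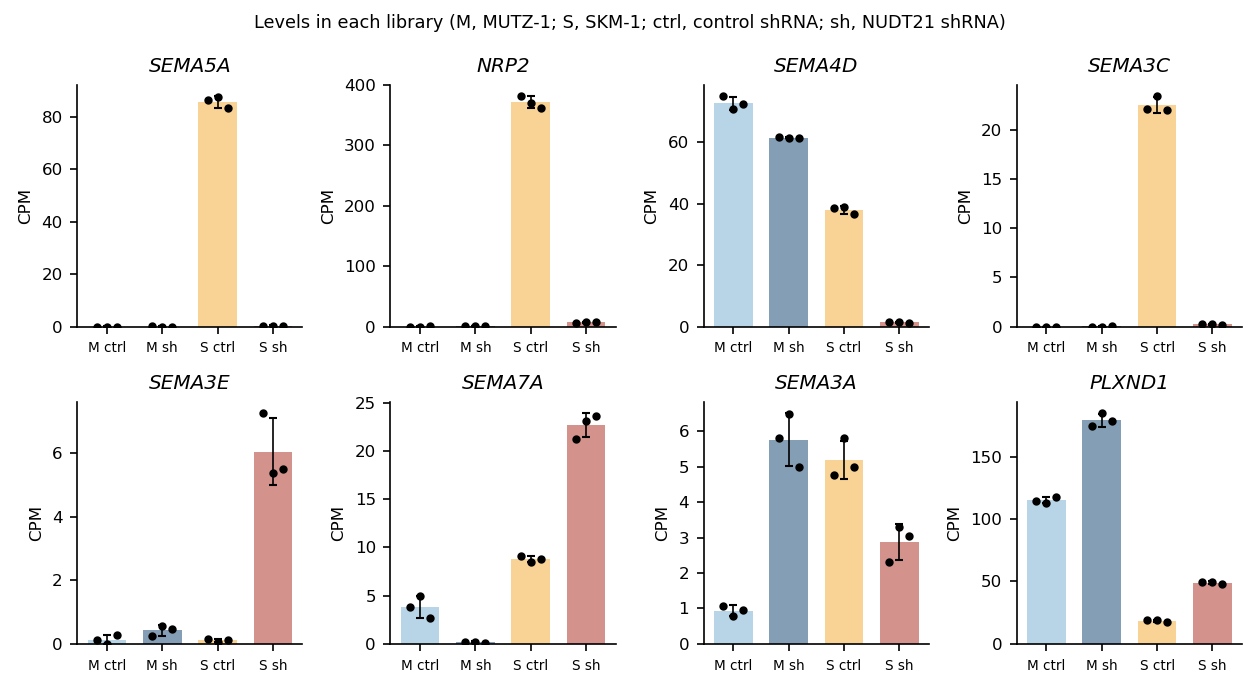
CPM of 8 members in every library, with bars for the mean of 3 libraries, lines for the SD and points for the libraries, on an axis from 0 that differs between panels. SEMA5A, NRP2 and SEMA3C are high in SKM-1 control libraries and near 0 elsewhere, SEMA3E is high with the hairpin in SKM-1, and SEMA7A and SEMA3A change in opposite directions in the 2 lines.

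Class 4 semaphorins, which are membrane proteins that bind mainly class B plexins and occur on many blood cells, held up as a class while their members went apart. Their summed level went from 29.8 ± 1.45 to 33.7 ± 1.36 FPKM in SKM-1 and from 31.6 ± 0.526 to 29.3 ± 0.157 FPKM in MUTZ-1. In SKM-1, 3 of the 6 were higher, 2 lower and 1 did not pass, where 42.1% of all genes were higher and 42.3% lower. SEMA4D, also known as CD100, binds PLXNB1 and, on B cells, CD72. It was at 38.6, 39.0 and 36.5 CPM in SKM-1 control libraries and at 1.503, 1.55 and 1.18 CPM with the hairpin (log2 change -4.74 ± 0.11, adjusted p = 6.37e-103). In MUTZ-1 it was at 75.0, 70.7 and 72.3 CPM and at 61.6, 61.3 and 61.3 CPM (-0.24 ± 0.05). Neither pair of groups overlapped, and the hairpin libraries were lower in both lines, to 3.71% of control in SKM-1 and 84.5% in MUTZ-1.

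SEMA4F, whose libraries overlapped between the control lines, went from 18.1, 15.8 and 14.3 to 5.89, 6.22 and 7.20 CPM in SKM-1 (log2 change -1.32 ± 0.11). In MUTZ-1 it was at 16.7, 16.9 and 13.1 CPM and at 17.0, 16.9 and 17.7 CPM, with no change past the test. SEMA4C and SEMA4B, ligands of PLXNB2, rose in SKM-1. SEMA4C went from 74.3, 71.9 and 64.4 to 86.1, 94.2 and 91.1 CPM (0.37 ± 0.05) and SEMA4B from 28.2, 27.8 and 29.4 to 43.4, 46.9 and 44.9 CPM (0.66 ± 0.06). SEMA4B stayed within its spread in MUTZ-1, at 35.0, 30.99 and 33.3 CPM and at 32.5, 32.4 and 31.3 CPM, and SEMA4C had at most 5 counts in a MUTZ-1 group.

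SEMA4A, a ligand known from the contact of dendritic cells with T cells, was the highest semaphorin of MUTZ-1. It went there from 61.8, 62.8 and 62.8 to 50.4, 51.9 and 51.5 CPM (log2 change -0.28 ± 0.06), every hairpin library being below every control library. In SKM-1 it was at 1.63, 1.25 and 1.38 CPM and at 1.69, 2.75 and 1.30 CPM, and the groups overlapped. On log2(FPKM + 0.1) the falls of SEMA4A and SEMA4D in MUTZ-1 did not pass the test (limma, adjusted p = 0.293 and 0.0534).

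SEMA4G rose in both lines. In MUTZ-1 it went from 1.70, 2.09 and 1.47 to 4.86, 4.77 and 4.64 CPM (log2 change 1.44 ± 0.19), and in SKM-1 from 8.71, 8.74 and 7.58 to 13.8, 13.6 and 13.2 CPM (0.69 ± 0.13). The whole gene (chromosome 10, positions 100969518 to 100985871, plus strand) lies over MRPL43 on the other strand, 16354 shared bases. The use of strand in counting is not given in the sources used here, so reads of the pair cannot be told apart with certainty. MRPL43 itself was at 37.3 ± 1.01 and 37.3 ± 2.62 CPM in MUTZ-1 and at 40.8 ± 2.39 and 32.9 ± 3.26 CPM in SKM-1, and the share of its reads in the rise of SEMA4G was not tested.

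SEMA5A showed the deepest fall of the family in SKM-1. It is a transmembrane semaphorin with thrombospondin repeats, which class 3 and 4 ligands lack, and lies at chromosome 5, positions 9035026 to 9546075. It was at 86.6, 87.4 and 83.2 CPM in the control libraries and at 0.438, 0.239 and 0.372 CPM with the hairpin, 4599 against 17 counts (log2 change -7.91 ± 0.14, adjusted p = 8.75e-127). In MUTZ-1 it had 2 and 3 counts in all. The fall of SEMA5A was known when the family was chosen. The gene passed the filter on low counts only through SKM-1 control libraries and so had to fall, which its p-value restates. PLXNB3, a receptor reported for SEMA5A, went from 10.4, 11.1 and 11.0 to 1.69, 1.79 and 3.04 CPM in SKM-1 (-2.31 ± 0.19). PLXNB3 shares 2935 bases with SRPK3 on the same strand, and SRPK3 went from 5.93 ± 0.0913 CPM to 0 counts, so that the share of its reads in that fall was not tested. SEMA5B, with 17 and 0 counts, was at least 5.16-fold lower.

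All 4 class 6 semaphorins, membrane ligands of class A plexins, fell in SKM-1, where 42.3% of all genes were lower. SEMA6A went from 19.6, 22.4 and 21.1 to 0.689, 0.718 and 0.744 CPM (log2 change -4.86 ± 0.19) and SEMA6D from 11.1, 11.5 and 9.48 to 0.501, 0.179 and 0.186 CPM (-5.18 ± 0.28). SEMA6B went from 11.96, 12.8 and 10.7 to 2.51, 2.51 and 2.05 CPM (-2.33 ± 0.16) and SEMA6C from 14.2, 16.7 and 14.8 to 6.58, 6.94 and 8.44 CPM (-1.06 ± 0.12). The groups of all 4 lay apart, and the sum of the class went from 9.49 ± 0.662 to 1.80 ± 0.0780 FPKM. In MUTZ-1 the sum went from 2.20 ± 0.0681 to 4.41 ± 0.114 FPKM, and SEMA6B and SEMA6C were the members that passed the test. SEMA6B went there from 4.08, 4.90 and 5.26 to 10.3, 10.2 and 10.0 CPM (1.10 ± 0.14) and SEMA6C from 8.89, 7.17 and 6.05 to 11.7, 13.0 and 13.6 CPM (0.79 ± 0.12). SEMA6A had 1 count in MUTZ-1 control libraries and 0 with the hairpin, and SEMA6D 0 in both.

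SEMA7A, which is held in the membrane by a lipid anchor and binds PLXNC1 and integrins with the beta-1 chain, changed in opposite directions. The gene lies at chromosome 15, positions 74409289 to 74433958. In MUTZ-1 it was at 3.79, 4.96 and 2.71 CPM in control libraries and at 0.234, 0.191 and 0.0595 CPM with the hairpin, 198 against 8 counts (log2 change -4.50 ± 0.33, adjusted p = 8.97e-29). In SKM-1 it was at 9.16, 8.47 and 8.79 CPM and at 21.2, 23.1 and 23.6 CPM (1.36 ± 0.11, adjusted p = 2.97e-25). Neither pair of groups overlapped. Of the 28 tested members it alone passed the test with a fall of 2-fold or more in MUTZ-1.

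Among the plexins, in MUTZ-1, 4 of the 8 tested were higher and 0 lower (all genes 24.4% and 24.6%), and their summed level went from 60.7 ± 0.953 to 78.1 ± 1.65 FPKM. In SKM-1, 3 were higher and 4 lower, near the shares of all genes (42.1% and 42.3%), and the sum went from 65.2 ± 0.542 to 54.5 ± 1.59 FPKM. PLXND1, receptor of SEMA3E and a plexin best known from blood vessels, rose in both lines. In MUTZ-1 it went from 115, 113 and 118 to 174, 185 and 179 CPM (log2 change 0.64 ± 0.03), and in SKM-1 from 19.0, 18.8 and 17.5 to 49.9, 49.4 and 47.8 CPM (1.41 ± 0.06). Every hairpin library was above every control library of its line, and the rise was larger in SKM-1 (difference -0.77 ± 0.07, adjusted p = 1.03e-22).

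PLXNC1, receptor of SEMA7A, also rose in both lines. In MUTZ-1 it went from 29.2, 28.96 and 27.3 to 50.3, 51.9 and 53.4 CPM, and in SKM-1 from 4.16, 4.18 and 4.48 to 8.02, 7.71 and 7.57 CPM (log2 changes 0.87 ± 0.07 and 0.86 ± 0.12). The difference between the lines was 0.003 ± 0.20 and did not pass the test. PLXNC1 shares 1227 bases with CEP83 on the other strand, which in MUTZ-1 went from 47.5 to 54.5 CPM, and in SKM-1 from 48.9 to 44.3 CPM.

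Among class A plexins, partners of the neuropilins and receptors of class 6 ligands, PLXNA1 and PLXNA3 went up in MUTZ-1 and down in SKM-1. PLXNA1 was at 50.4, 47.7 and 50.6 CPM and at 59.4, 63.6 and 57.9 CPM in MUTZ-1 (log2 change 0.28 ± 0.04), and at 246, 241 and 241 CPM and at 210.1, 212 and 226 CPM in SKM-1 (-0.17 ± 0.03). PLXNA3 was at 37.9, 37.6 and 36.6 CPM and at 46.7, 49.2 and 48.7 CPM in MUTZ-1 (0.37 ± 0.05), and at 89.3, 88.9 and 84.9 CPM and at 54.2, 50.6 and 55.2 CPM in SKM-1 (-0.72 ± 0.05). In each case the groups of a line did not overlap. PLXNA2 was at 3.41 ± 0.260 and 4.65 ± 0.406 CPM in SKM-1 (0.45 ± 0.21, adjusted p = 0.0414), a call that DESeq2 (adjusted p = 0.0785) and library totals alone (adjusted p = 0.0976) did not make, and that was lost without control replicate 2 or 3 or hairpin replicate 1 or 2 of that line, or without MUTZ-1 control replicate 1 or 2 (edgeR, adjusted p = 0.0509 to 0.173). PLXNA4, with 18 counts in SKM-1 control libraries and 0 with the hairpin, was at least 5.46-fold lower.

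The class B plexins PLXNB1 and PLXNB2 changed little beside PLXNB3. PLXNB2 was at 242, 243 and 252 CPM and at 254, 259 and 253 CPM in MUTZ-1 (log2 change 0.06 ± 0.03, adjusted p = 0.0826), and at 113, 118 and 118 CPM and at 96.0, 95.8 and 100.6 CPM in SKM-1 (-0.26 ± 0.03). PLXNB1, the receptor of SEMA4D, was at 23.9, 22.6 and 22.4 CPM and at 20.1, 23.02 and 22.5 CPM in SKM-1, with overlapping groups. Its log2 change of -0.07 did not pass the test, and its ligand SEMA4D was left at 3.71% in the same line.

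The 2 knockdowns, which share no library, were then set against each other gene by gene. Of the 28 tested members, 4 were higher in both lines (PLXNC1, PLXND1, SEMA3E and SEMA4G), 1 was lower in both (SEMA4D), 6 were higher in MUTZ-1 and lower in SKM-1 (PLXNA1, PLXNA3, SEMA3A, SEMA3G, SEMA6B and SEMA6C), and 1 was the reverse (SEMA7A). Over all genes tested the shares of these classes were 7.71%, 6.59%, 13.0% and 15.0%. The MUTZ-1 call of SEMA3E stood on means of 0.132 and 0.428 CPM, in groups that overlapped. A further 10 members were lower in SKM-1 with no change past the test in MUTZ-1, a class of 22.7% of all genes. Of these, NRP2, PLXNB3, SEMA3B, SEMA3C, SEMA3D, SEMA5A, SEMA6A and SEMA6D were under 1 CPM in MUTZ-1 throughout. The test of the difference between the knockdown effects (MUTZ-1 minus SKM-1) called 16 members higher and 5 lower, where 36.4% and 35.6% of all genes were called. Of the 28, 12 were under 1 CPM in both MUTZ-1 groups, and for these the difference mostly restates the change in SKM-1.

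**Figure D4:**
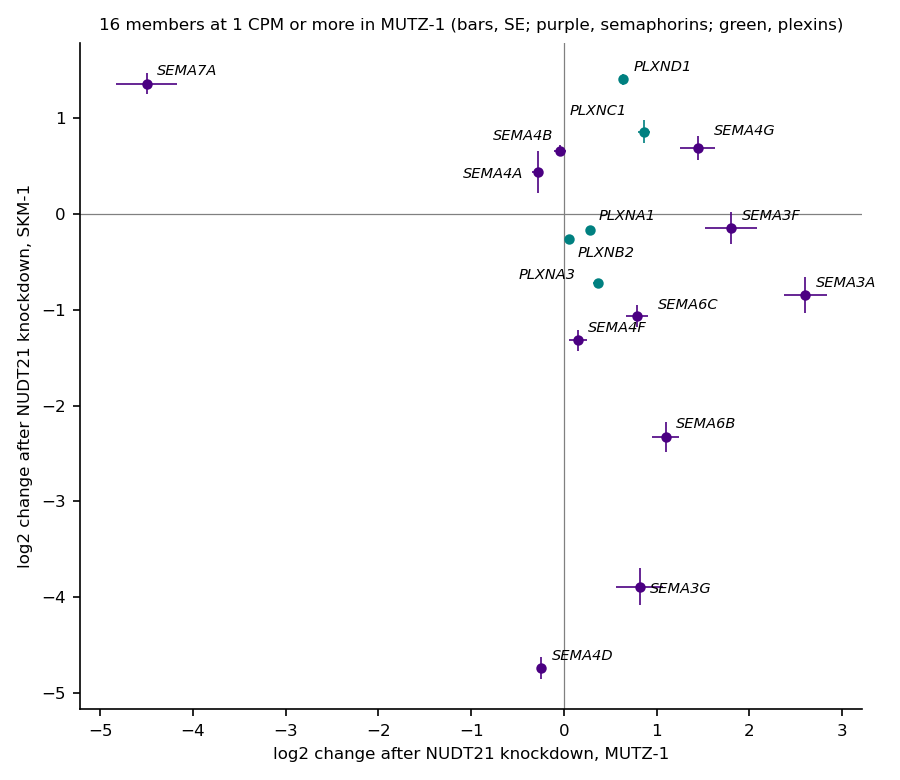
Log2 change after knockdown in MUTZ-1 (horizontal axis) and in SKM-1 (vertical axis) of the 16 members at 1 CPM or more in either MUTZ-1 group, with bars for the SE, semaphorins in purple and plexins in green. PLXND1, PLXNC1 and SEMA4G lie above 0 in both lines, SEMA4D lies below 0 in both, and SEMA7A is far to the left, at -4.50 in MUTZ-1 and 1.36 in SKM-1.

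The changes in SKM-1 were also read beside those of each member's chromosome, since chromosomes differed as wholes there. The median log2 change over the tested genes of a chromosome ran from -1.08 to 0.47 in SKM-1 and from -0.02 to 0.04 in MUTZ-1. Chromosome 7 holds SEMA3A, SEMA3C, SEMA3D and SEMA3E within 1 stretch, all on the minus strand, and its median was 0.35. Relative to it, SEMA3C stood at -6.94, SEMA3D at -4.45, SEMA3A at -1.19 and SEMA3E at 5.32. Neighbours in that stretch therefore moved in opposite directions. On chromosome X, with a median of -0.45, PLXNA3 stood at -0.27 and PLXNB3 at -1.87. With each gene's chromosome median taken out, 17 members remained lower and 7 higher. That setting was chosen after the data had been seen.

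**Figure D5:**
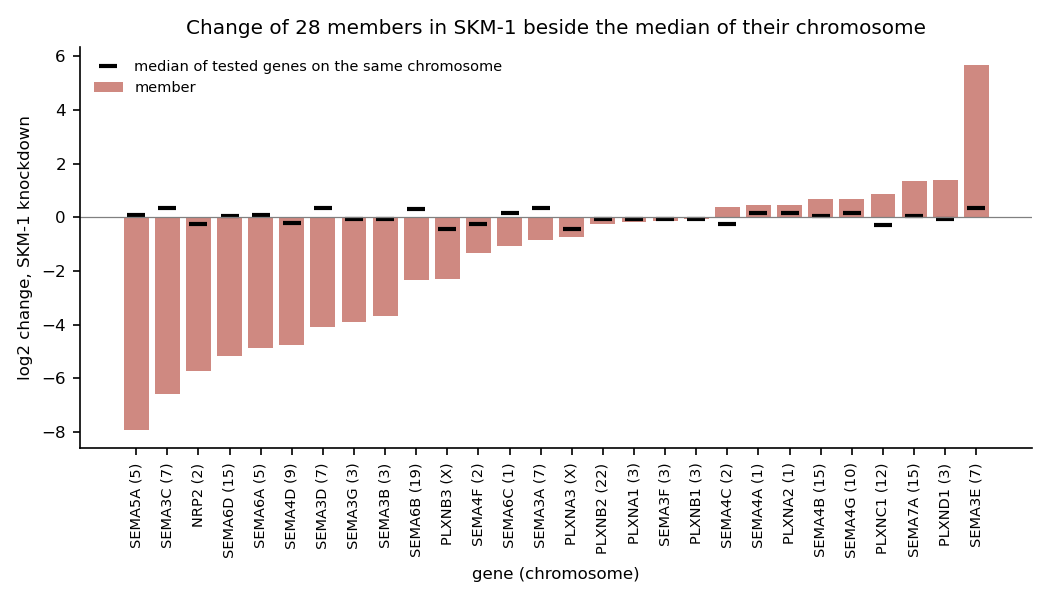
Log2 change of the 28 tested members after knockdown in SKM-1 (bars, in order of size), with a black dash for the median log2 change of the tested genes on the same chromosome, named in brackets. The dashes lie between -0.45 and 0.35, and the bars reach from -7.91 for SEMA5A to 5.67 for SEMA3E.

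Because NUDT21 acts at RNA ends, the annotated 3′ untranslated regions of the members were measured. NUDT21 binds the letters UGUA in RNA. The longest annotated 3′ untranslated region per gene (GENCODE annotation of GRCh38) had a median of 2356 bases in the 31 members and of 1273 bases in 16289 genes of the table with at least 100 bases. The members held a median of 12 UGUA matches (TGTA in the transcript sequence as DNA), against 6, and 3.87 per kilobase, against 4.82. Of the members that fell in SKM-1, SEMA3C had 20 matches in 2356 bases and SEMA5A 38 in 7871, but SEMA3B had 2 in 473 and PLXNB3 1 in 307. Of those that rose there, SEMA3E had 30 in 4348 bases and PLXNC1 18 in 2390, but PLXND1 had 1 in 1137 and SEMA7A 3 in 1335. These 8 were picked after their values were seen, so they do not show how the matches ran over all members that fell or rose. Whether the number of matches went with the direction of change was not tested. Gene counts do not show which end of a transcript was used, and the choice of end was not measured here.

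Genes that pass the signal on from plexins were read as a list of 42, of which 39 were tested. The list holds small GTPases, their regulators, collapsin response mediators and actin regulators. In MUTZ-1, 14 were higher and 4 lower, where all genes gave 24.4% and 24.6%. By 2-fold 0 of them changed, against 3.11% and 1.64% of all genes. MICAL1, an enzyme that oxidises actin downstream of plexins, rose from 43.8 ± 0.933 to 70.3 ± 2.56 CPM. The kinase gene PAK2 fell from 541 ± 10.7 to 283 ± 4.11 CPM. In SKM-1, 18 were higher and 19 lower, close to the shares of all genes (42.1% and 42.3%). By 2-fold, 4 were higher and 8 lower, against 12.6% and 22.5% of all genes. The mediators of growth cone collapse DPYSL3 and DPYSL2 fell from 145 ± 1.36 to 3.64 ± 0.238 and from 67.9 ± 3.77 to 3.33 ± 0.640 CPM, and FARP1, a partner of class A plexins, from 83.9 ± 1.26 to 3.66 ± 0.577 CPM. MICAL2 rose from 45.0 ± 1.52 to 117 ± 3.09 CPM, MRAS from 9.86 ± 1.15 to 27.2 ± 0.323 CPM and RAP1B from 86.8 ± 1.84 to 187 ± 4.75 CPM.

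Of 17 other receptors and co-receptors reported for semaphorins or coupled to plexins, 11 were tested, with 5 higher and 1 lower in MUTZ-1 and 4 higher and 6 lower in SKM-1, where all genes gave 24.4% and 24.6% in MUTZ-1 and 42.1% and 42.3% in SKM-1. CD72, which binds SEMA4D on B cells, rose in MUTZ-1 from 51.0 ± 1.94 to 88.6 ± 5.65 CPM, where SEMA4D fell slightly. PTK7 rose there from 37.7 ± 1.46 to 64.0 ± 3.44 CPM and fell in SKM-1 from 144 ± 1.55 to 25.7 ± 1.495 CPM. The receptor kinases MET and ERBB2, which couple to class B plexins, fell in SKM-1 from 96.7 ± 2.52 to 9.01 ± 0.284 and from 45.5 ± 1.56 to 13.3 ± 1.13 CPM. MST1R, a relative of MET, rose from 3.66 ± 0.364 to 14.1 ± 2.12 CPM. Of 8 genes of the vascular endothelial growth factors and their receptors, 5 were tested, with 1 higher and 2 lower in each line. VEGFA, a ligand of neuropilins, fell from 149 ± 3.80 to 64.8 ± 1.57 CPM in SKM-1, and VEGFD rose from 3.14 ± 0.613 to 11.2 ± 1.19 CPM in MUTZ-1.

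The other guidance families, ephrins, slits, netrins and their receptors, were read in the same way. Of 29 tested among 41, 10 were higher and 0 lower in MUTZ-1, where all genes gave 24.4% and 24.6%. In SKM-1, 3 were higher and 25 lower, where all genes gave 42.1% and 42.3%. All 25 falls in SKM-1 were at least 2-fold, against 22.5% of all genes, and here too a gene that passed the filter only through control libraries had to fall. ROBO1, a receptor of slits, fell in SKM-1 from 104 ± 0.734 to 3.62 ± 0.748 CPM, the ephrin receptor gene EPHA4 from 28.7 ± 0.906 to 0.899 ± 0.164 CPM and EPHA8 from 31.6 ± 0.757 to 0.577 ± 0.189 CPM. ROBO2 rose from 2.73 ± 0.227 to 9.21 ± 0.832 CPM. In MUTZ-1 EPHA4 rose from 23.04 ± 0.419 to 30.3 ± 0.749 CPM and NEO1, a receptor of netrins and related ligands, from 50.0 ± 1.46 to 60.2 ± 2.12 CPM. Falls in SKM-1 were thus found in other guidance families too.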

How the data were processed

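Per the submitters' processing notes, reads were processed with fastp, HISAT2 and HTSeq on GRCh38. Their versions, the annotation, the strand setting and the handling of multimapping reads are not given in these sources. Per the labels' protocols, TRIzol was used to isolate RNA and the TruSeq Stranded mRNA kit to make libraries. The deposited counts are whole reads per gene for 17518 genes and were used as deposited. The FPKM values deposited by the authors for the same libraries, whose making is not described further, gave levels per gene length and 2 alternatives, tested with limma 3.58.1 on log2(FPKM + 1) and log2(FPKM + 0.1).

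In edgeR 4.0.16 (R 4.3.3), filterByExpr kept 13625 genes. Counts were scaled by trimmed means of M values (factors 0.959 to 1.06), which CPM values include, and tested by the quasi-likelihood test with robust shrinkage in 1 fit of the 12 libraries with a mean per group (8 residual degrees of freedom). The 4 comparisons were the knockdown effect in each line, the difference of these effects, and the control libraries of MUTZ-1 minus those of SKM-1. The Benjamini-Hochberg method adjusted p over all genes tested, with calls at under 0.05. The SE is the size of the log2 change over the square root of F. Alternatives were library totals, DESeq2 1.42.0, no filter, a replicate block, only the groups compared, each library left out, and a chromosome offset. The procedure was tested on simulated data. Gene positions came from GENCODE (GRCh38), promoters from RefSeq (GRCh38.p14).

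The members and the other lists were chosen with earlier results of these data known, among them the fall of SEMA5A. Values in every library are given for members at 5 CPM or more in any group. From other lists at most 3 genes per direction are named, the largest changes among called genes at a mean of 5 CPM or more whose groups do not overlap. Intervals and floors cover counting error only.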

Additional observations from a re-analysis of the deposited data

Results flagged for a closer look

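For 7 members the knockdown effect differed between MUTZ-1 and SKM-1 in direction as well as by the interaction test of edgeR, each with every hairpin library of a line on the same side of its control libraries. Differences are log2 changes in MUTZ-1 minus those in SKM-1, with their SE. SEMA7A, lower with the hairpin in MUTZ-1 and higher in SKM-1, stood at -5.86 ± 0.34 (changes of -4.50 and 1.36, adjusted p = 1.82e-41).

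The other 6 rose in MUTZ-1 and fell in SKM-1. Among the secreted ligands, SEMA3G stood at 4.71 ± 0.33 (0.82 and -3.89, adjusted p = 1.09e-29) and SEMA3A at 3.45 ± 0.30 (2.60 and -0.85, adjusted p = 2.64e-23). The rise of SEMA3G in MUTZ-1 did not pass without hairpin replicate 1 (edgeR, adjusted p = 0.117). Nor did it pass on log2(FPKM + 0.1) (limma, adjusted p = 0.0742). The class 6 ligands SEMA6B and SEMA6C stood at 3.42 ± 0.21 (1.10 and -2.33, adjusted p = 1.26e-37) and 1.85 ± 0.16 (0.79 and -1.06, adjusted p = 2.47e-22). The class A plexins PLXNA3 and PLXNA1 stood at 1.09 ± 0.07 (0.37 and -0.72, adjusted p = 6.67e-36) and 0.45 ± 0.05 (0.28 and -0.17, adjusted p = 2.00e-14). The markers that moved in SKM-1 are given in the report, and their part in these differences was not tested.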

How the results depend on the processing

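Of 1681 values of 87 member results under the alternatives, 1633 kept direction and side of the threshold. Of the rest, 22 lost the call, 13 gained one and 13 changed sign. These results cover tested members at a mean of 1 CPM or more in a group compared, in both lines for the difference. The call of SEMA3E in MUTZ-1 is thus not among them. Of the 1633, 1021 came from fits with 1 library left out, which could be of the line not compared. The count of members lower in MUTZ-1 was 3, and 1 on log2(FPKM + 0.1), where SEMA4A and SEMA4D lost their call. With each library left out in turn, 10 to 13 members were higher and 3 to 3 lower in MUTZ-1, 7 to 9 higher and 17 to 17 lower in SKM-1, 13 to 17 higher and 4 to 5 lower in the difference of effects, and 5 to 6 higher and 20 to 20 lower between control lines. Signalling genes ranged from 14 to 16 higher and 4 to 5 lower in MUTZ-1, and 18 to 18 higher and 19 to 20 lower in SKM-1.

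The 13 sign changes were of values that had not passed the test. SEMA4B in MUTZ-1 (-0.05) stood at 0.0010 with library totals, at 0.0031 and 0.0036 on log2(FPKM + 1) and log2(FPKM + 0.1), and at -0.067 to 0.022 with each library left out. The difference of PLXNC1 (0.003) stood at -0.00075 with no filter, at -0.032 to 0.071 with each library left out, at -0.29 with the chromosome offset (adjusted p = 0.0525), and passed on log2(FPKM + 1) at 0.43. SEMA4F between control lines (-0.05) stood at -0.16 to 0.064 with each library left out. PLXNB1 in SKM-1 (-0.07) stood at 0.0032 with the chromosome offset. The cause was not tested.

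Library totals moved the median of all genes by 0.13 in the difference of effects and by -0.14 between control lines. SEMA4B between control lines (0.22) then did not pass (edgeR, adjusted p = 0.209). Nor did it pass on log2(FPKM + 1) or log2(FPKM + 0.1) (limma, adjusted p = 0.144 and 0.147), or without MUTZ-1 control replicate 1 (edgeR, adjusted p = 0.0872). On log2(FPKM + 1) the difference of SEMA4G did not pass (limma, adjusted p = 0.0877). The difference of SEMA4A did not pass without SKM-1 hairpin replicate 2 (adjusted p = 0.308), nor on log2(FPKM + 0.1) (adjusted p = 0.0813). PLXNB2 in MUTZ-1 (0.06, adjusted p = 0.0826) passed under 8 alternatives, with library totals (adjusted p = 0.00069), DESeq2 (adjusted p = 0.0258), both FPKM scales (adjusted p = 0.0144 and 0.0168), and without MUTZ-1 control replicate 2 or 3 or hairpin replicate 2, or SKM-1 hairpin replicate 2 (adjusted p = 0.0071 to 0.0475), and SEMA4C in SKM-1 did not pass on log2(FPKM + 0.1) (adjusted p = 0.0599). Replicate numbers did not pair the samples (correlations of deviations from -0.05 to 0.03). With a replicate block, 11 members were higher and 3 lower in MUTZ-1, and 7 higher and 17 lower in SKM-1, PLXNA2 being lost (adjusted p = 0.0641). For the 15 members under 1 CPM in both MUTZ-1 groups, depth limits what a missing call can say.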
